A study of Mus musculus with 18 samples.

Results

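A set of 8 genes of programmed cell death was followed in detached mouse retina: the inflammatory caspases Casp1 and Casp4, the initiator caspase Casp8, the pro-death BCL2 family members Bax and Bcl2l11, and the pro-survival members Bcl2, Bcl2l1 and Mcl1. They were found as the probe sets that the array's annotation gives to one of these symbols alone. That gave 19 probe sets for 7 of the 8 genes, out of 22626 probe sets tested: 6 for Mcl1, 5 for Bcl2l11, 4 for Bcl2l1 and 1 each for Casp1, Casp4, Casp8 and Bcl2. No probe set carries the symbol Bax in that table, and Bax was not analysed here. Where a gene had several probe sets, the one of highest mean over the 18 arrays stands for it, and the others are given beside it.

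The retinas came from Balb/cJ mice and were detached by 1 uL of fluid placed beneath the retina, which was saline with 10 uM INS37217 or saline alone. INS37217 (denufosol) activates P2Y2, a receptor for extracellular nucleotides whose stimulation makes the pigment epithelium take up fluid from the subretinal space. Each treatment was followed at 2 h, 24 h and 7 d after the injection, with 3 arrays in each of the 6 groups, and each array held RNA pooled from more than 5 retinas. All groups share the detachment, and no untreated retina was analysed here, so each value compares injected retinas with injected retinas. The sources used here give no age or sex of the mice. Whole retina was pooled, so fewer cells of a type and less RNA per cell cannot be told apart in any result.

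Apoptosis and pyroptosis are the 2 forms of programmed death to which these genes belong. In the mitochondrial route of apoptosis, BH3-only proteins such as the product of Bcl2l11, named BIM, free BAX to open the outer mitochondrial membrane, and the pro-survival proteins BCL2, BCL-XL (from Bcl2l1) and MCL1 hold them back. In the death receptor route, receptors such as FAS bring Casp8 protein together with the adaptor FADD, and Casp8 in turn restrains necroptosis. Casp1 and Casp4 (the mouse gene long called Casp11) are cut or activated in inflammasomes, open gasdermin D pores and so release interleukin-1. After retinal detachment, photoreceptors are known to die by several of these routes.

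Promoter sequence is shown for 3 genes: Casp8 and Bcl2l11, whose main probe sets passed a test between times, and Casp4, whose windows held the most motif matches. The sequences are the 250 bases before a RefSeq start in build GRCm38.p6, each on the plus strand and written 5′ to 3′. Capitals mark matches, on either strand, to 5 motifs: IRF (AANNGAAA), FOXO (GTAAACA), AP-1 (TGANTCA), GAS (TTCNNNGAA) and the kappaB motif.
Casp8, chr1:58802252-58802501: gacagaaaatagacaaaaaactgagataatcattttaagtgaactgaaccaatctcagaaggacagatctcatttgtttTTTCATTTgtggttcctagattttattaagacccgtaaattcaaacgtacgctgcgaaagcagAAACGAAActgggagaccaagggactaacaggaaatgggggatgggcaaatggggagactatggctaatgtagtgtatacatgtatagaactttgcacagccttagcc
Bcl2l11, chr2:128125788-128126037: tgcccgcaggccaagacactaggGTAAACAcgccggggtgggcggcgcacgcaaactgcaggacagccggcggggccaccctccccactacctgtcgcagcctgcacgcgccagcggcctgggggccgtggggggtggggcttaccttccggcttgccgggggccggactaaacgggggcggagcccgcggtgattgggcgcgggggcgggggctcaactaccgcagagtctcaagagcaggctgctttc
Casp4, chr9:5308599-5308848: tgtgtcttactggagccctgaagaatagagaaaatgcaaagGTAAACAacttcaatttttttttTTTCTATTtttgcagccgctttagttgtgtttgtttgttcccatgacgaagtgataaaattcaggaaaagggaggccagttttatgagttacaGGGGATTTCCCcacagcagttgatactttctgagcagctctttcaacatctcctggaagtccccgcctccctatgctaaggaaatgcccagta

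The Casp8 window held 2 IRF matches, at 171 to 164 bases before the start on the minus strand and at 108 to 101 on the plus strand. The Bcl2l11 window held 1 FOXO match, 227 to 221 bases before the start. Casp4 had an IRF match at 186 to 179 bases, a FOXO match at 209 to 203 bases, and a pair of overlapping kappaB matches at 93 to 84 and 92 to 83 bases. A second Casp4 window, which overlaps this one, added 1 IRF match, and a second Bcl2l11 window held none of the 5 motifs. The windows of Casp1, Bcl2 and Mcl1 held none of the 5 motifs, and of the 3 windows of Bcl2l1 1 held an IRF and a kappaB match and 1 an IRF match. Among 32851 mouse windows of this length, 21.3% held an IRF match, 3.2% a FOXO match, 6.7% an AP-1 match, 7.0% a GAS match and 3.9% a kappaB match. These matches are letters in a window and were not measured as binding. The Casp8 and Mcl1 windows lie inside the RefSeq spans of their genes (chr1:58795233-58847503 and chr3:95656944-95663179). So do the 3 windows of Bcl2l1 (chr2:152758732-152833803) and the second window of Bcl2l11 (chr2:128126038-128162547). The windows printed for Bcl2l11 and Casp4 lie just before the gene's first base.

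Some properties of the arrays bear on what follows. Values are log2 RMA values, so a difference of 1 is a doubling. Apart from the check of the tissue that follows and the low levels of Casp1 and Casp4, levels of different probe sets are not set against each other. Of 8 rod genes 7 were measured, and their mean ran from 11.98 to 12.44 over the 6 groups, in a file whose values span 2.83 to 14.15. Replicate 1 stood apart from replicates 2 and 3 in every group, and arrays with the same replicate number deviated together. Results are therefore given from limma without the replicate number and, where it changes the call, also with the number as a block. Where the ranges of groups are said not to overlap, the share of all probe sets without such overlap was not counted. The source name leaves out INS37217 on 8 of its 9 arrays, where the titles were followed. That of saline 7 d replicate 2 gives another time. Its highest correlation was 0.9945 with an INS37217 7 d array and 0.9941 with a saline 7 d array, against at most 0.979 with a saline 2 h array. These values set it apart from 2 h but do not tell the treatments apart, and it was kept in saline 7 d as titled.

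**Figure D1:**
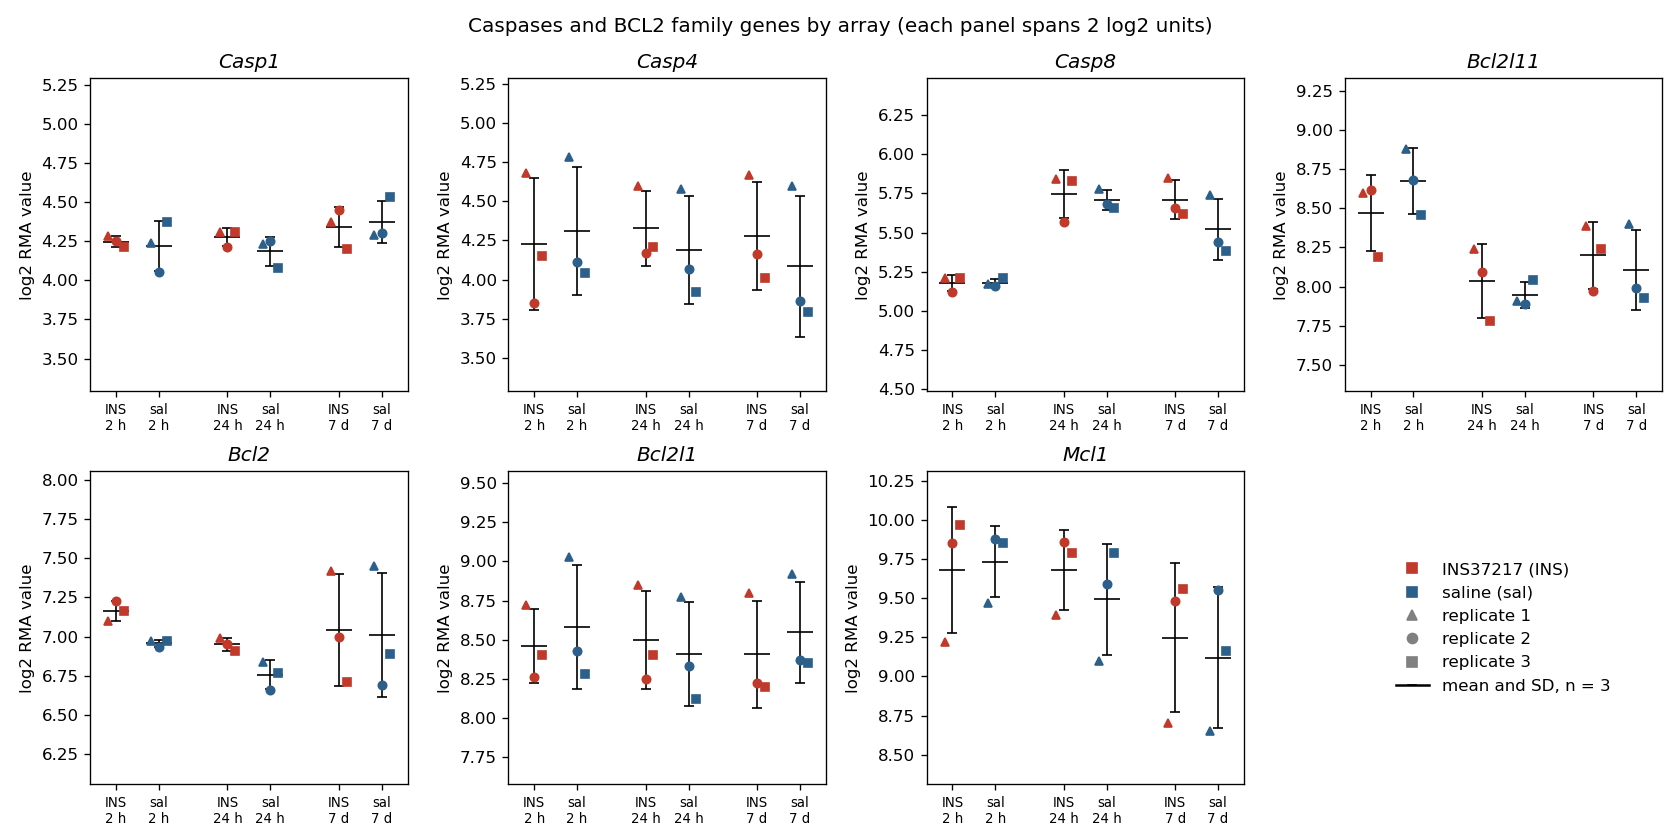
Log2 RMA value of each gene's main probe set on every array (vertical axis, 2 log2 units in each panel) for INS37217 (INS, red) and saline (sal, blue) retinas at each time; marker shape gives the replicate number, and lines give the mean and SD of 3 arrays. Casp8 lies between 5.12 and 5.21 on all 6 arrays at 2 h and between 5.38 and 5.85 on the 12 later ones, while replicate 1 is the highest of its group for Casp4 and Bcl2l1 and the lowest for Mcl1 in all 6 groups.

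Casp8 had a higher mean at 24 h and 7 d than at 2 h in both treatments, and it was the one main probe set with no overlap between the arrays at 2 h and the later ones. In INS37217 retinas its log2 values were 5.21, 5.12 and 5.21 at 2 h (replicates 1, 2 and 3), 5.84, 5.57 and 5.83 at 24 h, and 5.85, 5.66 and 5.62 at 7 d. In saline retinas they were 5.17, 5.16 and 5.21 at 2 h, 5.78, 5.68 and 5.66 at 24 h, and 5.74, 5.44 and 5.38 at 7 d. Every later array lay above every array at 2 h. How many of all probe sets separate the times in this way was not counted. By group mean the order was INS37217 24 h (5.75 ± 0.15), INS37217 7 d (5.71 ± 0.12), saline 24 h (5.71 ± 0.06), saline 7 d (5.52 ± 0.19), and both 2 h groups at 5.18, with an SD of 0.05 for INS37217 and 0.03 for saline (n = 3 arrays each). Neighbours among the 4 later groups overlapped in range.

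Casp8 rose 1.48-fold at 24 h against 2 h in INS37217 retinas (log2 difference 0.57, SE 0.11, limma adjusted p = 0.00463) and 1.44-fold in saline retinas (0.53, SE 0.11, adjusted p = 0.00792). Both differences were higher in 3 of 3 pairs of arrays with the same number. The rise at 7 d against 2 h in INS37217 retinas was 1.44-fold (0.53, SE 0.11, adjusted p = 0.00936). The corresponding difference in saline retinas was 0.34 (SE 0.11), with an adjusted p of 0.102 without the block and 0.0128 with it. Without saline 7 d replicate 2 it was 0.38 with an adjusted p of 0.149. Between 24 h and 7 d Casp8 did not pass in either treatment: the 7 d minus 24 h difference was -0.04 in INS37217 retinas and -0.19 in saline retinas.

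Bcl2l11, the BH3-only activator of BAX, had its highest mean at 2 h in both treatments. Its main probe set read 8.60, 8.62 and 8.19 at 2 h, 8.24, 8.09 and 7.78 at 24 h, and 8.39, 7.97 and 8.24 at 7 d in INS37217 retinas. Saline retinas gave 8.88, 8.68 and 8.46 at 2 h, 7.91, 7.89 and 8.04 at 24 h, and 8.40, 7.99 and 7.93 at 7 d. In saline retinas the 2 h arrays lay above all later ones, whereas in INS37217 retinas replicate 3 at 2 h fell within the range of the later arrays. The fall at 24 h against 2 h passed in saline retinas, where Bcl2l11 was 1.66-fold lower (log2 difference -0.73, SE 0.17, adjusted p = 0.0154). This call was lost without saline 2 h replicate 1 (limma adjusted p = 0.0707), saline 2 h replicate 2 (0.0559) or saline 24 h replicate 2 (0.0645). The log2 differences were then -0.62, -0.72 and -0.70 in this order.

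The same comparison in INS37217 retinas gave -0.43 (SE 0.17), with an adjusted p of 0.186 without the block and 0.0145 with it. Bcl2l11 differed at 7 d against 2 h by -0.27 in INS37217 retinas (adjusted p = 0.556, with the block 0.143) and by -0.57 in saline retinas (adjusted p = 0.0716, with the block 0.00199). The treatments were not shown to differ in this change: the difference between the 24 h changes was 0.29 (95% interval -0.22 to 0.81, limma adjusted p = 1). Of the other 4 Bcl2l11 probe sets, none passed in a comparison of times without the block. At 24 h against 2 h, 1435448_at, 1456006_at and 1435449_at gave -0.11, -0.39 and -0.28 in INS37217 retinas and -0.18, -0.23 and -0.26 in saline retinas. Of these, 1456006_at passed in INS37217 retinas with the block (adjusted p = 0.0148). Probe set 1426334_a_at went the other way, at 0.18 in INS37217 and 0.21 in saline retinas, and passed in neither fit. With the mean of all 5 probe sets in place of the main one, the fall in saline retinas at 24 h was -0.24 and no longer passed.

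Beside these changes from 2 h, a measure of RNA quality differed. The actin 3′ probe set exceeded the 5′ one by 0.75 ± 0.04 in INS37217 retinas and 1.04 ± 0.09 in saline retinas at 2 h (log2, SD, n = 3), and by 0.60 to 0.65 in the 4 later groups. Markers of immune cells also moved with time. All 13 listed genes of microglia and macrophages were measured, and the mean of the list ran from 6.31 to 6.44 at 2 h, 6.92 to 7.03 at 24 h and 7.66 to 8.01 at 7 d on INS37217 arrays. On saline arrays it ran from 6.29 to 6.39 at 2 h, 6.57 to 6.72 at 24 h and 7.25 to 7.49 at 7 d. At 24 h against 2 h, 6 of the 13 rose and 1 fell in INS37217 retinas, and 4 rose and 1 fell in saline retinas. At 7 d against 2 h, 12 rose and 1 fell in INS37217 retinas, and 9 rose and 1 fell in saline retinas. All 10 neutrophil genes were measured, and their mean was 6.05, 6.58 and 5.82 in INS37217 retinas and 5.96, 6.12 and 5.83 in saline retinas at 2 h, 24 h and 7 d. Only 2 of the 10 rose at 24 h against 2 h in each treatment, and in each 4 of 10 had a positive difference. The median difference was -0.07 in INS37217 retinas and -0.05 in saline retinas, so the mean does not stand for most of this list. Markers of other cells in or near the retina moved as well. Of 6 Mueller glia genes, 4 fell and 1 rose at 24 h against 2 h in each treatment, with a median of -1.07 in INS37217 retinas and -0.75 in saline retinas. Of 5 lens genes, 0 passed at 24 h against 2 h in INS37217 retinas and 5 rose in saline retinas, and the mean of the list at 2 h was 11.32 in INS37217 retinas and 10.56 in saline retinas. Against 2 h, 3 of 7 pigment epithelium genes rose by 7 d in INS37217 retinas and 2 of 7 in saline retinas, and 4 of 5 fibroblast genes rose in INS37217 retinas and 0 of 5 in saline retinas. Of all probe sets, 3.23% rose and 3.3% fell at 24 h against 2 h in INS37217 retinas, and 4.65% rose and 2.93% fell in saline retinas. By 7 d 2.51% rose and 2.39% fell in INS37217 retinas, and 2.7% rose and 2.74% fell in saline retinas. The endothelium list averaged 6.28 to 6.49 over the groups. Of its 6 genes, 2 rose and 0 fell at 24 h against 2 h in INS37217 retinas, and 2 rose and 1 fell in saline retinas. The list of T and B cells, 7 of 8 measured, gave no gene that passed against 2 h without the block. With the block 4 of these 7 fell at 24 h in saline retinas, against 12.9% of all probe sets, and 1 fell at 7 d, against 9.59%. In INS37217 retinas 0 fell with the block at either time. The part of these cells and of RNA quality in the Casp8 and Bcl2l11 changes was not tested. The rod list averaged 11.98 at 24 h, against 12.44 at 2 h, in INS37217 retinas and 12.04 at 24 h, against 12.42 at 2 h, in saline retinas, with 4 of 7 and 3 of 7 genes passed.

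**Figure D2:**
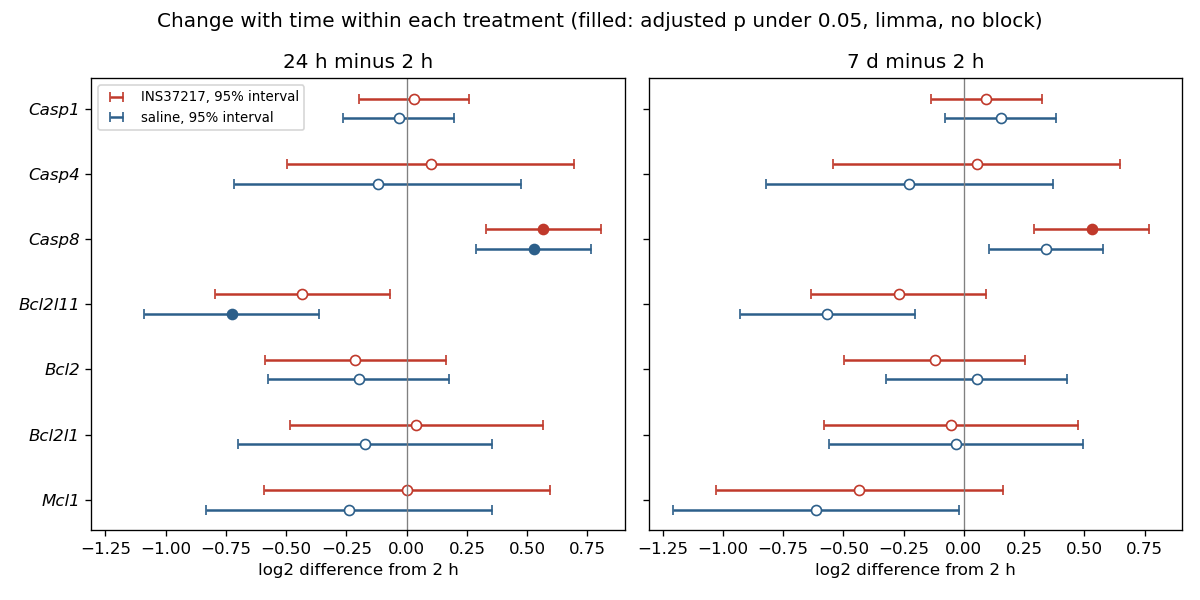
Log2 difference of each gene's main probe set (horizontal axis) at 24 h minus 2 h (left) and 7 d minus 2 h (right) in INS37217 (red) and saline (blue) retinas; bars are 95% intervals from limma without the block, and filled points have an adjusted p under 0.05. Casp8 lies to the right of 0 in all 4 comparisons (0.34 to 0.57) and Bcl2l11 to the left (-0.73 to -0.27).

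Over the 7 genes, 1 passed at 24 h against 2 h in INS37217 retinas (Casp8), where 6.52% of all 22626 probe sets passed, and 2 in saline retinas (Casp8 and Bcl2l11), where 7.58% did. With the block the counts were 2 of 7 in each, against 22.1% of all probe sets in INS37217 retinas and 29.0% in saline retinas. For 7 d against 2 h, 1 of 7 passed in INS37217 retinas (Casp8, background 4.91%) and 0 of 7 in saline retinas (background 5.44%), where 3 of 7 had an unadjusted limma p under 0.05. With the block, 2 of 7 passed in INS37217 retinas (Casp8 and Mcl1, background 17.9%) and 3 of 7 in saline retinas (Casp8, Bcl2l11 and Mcl1, background 21.9%). Between 24 h and 7 d no main probe set passed by limma without the block in INS37217 retinas (background 2.21%) or saline retinas (background 1.31%), and 0 of 7 had an unadjusted p under 0.05 in either. With the block Mcl1 passed in each, against a background of 7.66% in INS37217 retinas and 7.37% in saline retinas. With 7 genes, a share of them is coarse. The median difference of the 7 genes at 24 h against 2 h was 0.03 in INS37217 retinas and -0.17 in saline retinas.

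Mcl1, a short-lived pro-survival protein that binds BIM, had a lower mean at 7 d than at 2 h on all 6 of its probe sets in both treatments, though not all of these differences passed. Its main probe set, 1437527_x_at, read 9.22, 9.85 and 9.97 at 2 h, 9.39, 9.86 and 9.79 at 24 h, and 8.70, 9.48 and 9.56 at 7 d in INS37217 retinas. The saline values were 9.47, 9.88 and 9.85 at 2 h, 9.10, 9.59 and 9.79 at 24 h, and 8.65, 9.55 and 9.16 at 7 d. Replicate 1 was the lowest array of every group, by 0.61 on average, and the ranges of the groups overlapped. The 7 d minus 2 h difference was -0.43 in INS37217 retinas (SE 0.28, adjusted p = 0.569, with the block 0.00968) and -0.61 in saline retinas (SE 0.28, adjusted p = 0.281, with the block 0.000429). Against 24 h the 7 d difference was -0.43 in INS37217 retinas (adjusted p = 0.960, with the block 0.0185) and -0.37 in saline retinas (adjusted p = 0.908, with the block 0.0483).

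Probe sets with the suffix _x_at can also bind related transcripts, and the 3 of Mcl1 (1437527_x_at, 1456243_x_at and 1456381_x_at) all had replicate 1 lowest, by 0.61, 0.56 and 0.92. The other 3 varied less within groups, and each passed without the block in at least 1 comparison of 7 d with an earlier time. Probe set 1448503_at read 7.96, 8.62 and 8.53 at 2 h, 8.52, 8.40 and 8.31 at 24 h, and 7.80, 7.98 and 7.72 at 7 d in INS37217 retinas, and 8.19, 8.67 and 8.72, then 8.24, 8.20 and 8.22, then 7.51, 7.65 and 7.45 in saline retinas at the same times. It fell by 0.99 on the log2 scale at 7 d against 2 h in saline retinas (SE 0.17, adjusted p = 0.00178), and in INS37217 retinas the difference was -0.54 (adjusted p = 0.0855, with the block 0.00746). The corresponding difference of 1416880_at was -0.22 in INS37217 retinas (adjusted p = 0.381) and -0.66 in saline retinas (SE 0.11, adjusted p = 0.00142). Its values at 7 d were 8.85, 8.88 and 8.85 in INS37217 retinas and 8.56, 8.61 and 8.58 in saline retinas, with no overlap between the treatments (INS37217 minus saline 0.28, SE 0.11, unadjusted p = 0.0210, adjusted p = 1, with the block 0.549).

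Probe set 1416881_at had another time course. Its values at 2 h, 24 h and 7 d in INS37217 retinas were 8.11, 7.72 and 7.91, then 8.16, 8.32 and 8.19, then 7.80, 7.64 and 7.51. In saline retinas they were 7.58, 7.48 and 7.69, then 8.08, 7.96 and 8.16, then 7.33, 7.46 and 7.40. Its mean was thus highest at 24 h in both treatments. At 24 h against 2 h it rose by 0.48 in saline retinas (SE 0.12, adjusted p = 0.0165), and the difference was 0.31 in INS37217 retinas (adjusted p = 0.151, with the block 0.0435). Between 24 h and 7 d it fell by 0.57 in INS37217 retinas (adjusted p = 0.0113) and fell by 0.67 in saline retinas (adjusted p = 0.00543). For saline at 24 h against 2 h the Mcl1 probe sets therefore disagreed in sign, since 1416880_at gave -0.28 (adjusted p = 0.145, with the block 0.0467) and the main probe set -0.24. The 3 calls of Mcl1 probe sets that rest on saline 7 d held without its replicate 2, with adjusted p of 0.0167 for 1416881_at, 0.00615 for 1416880_at and 0.00557 for 1448503_at.

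**Figure D3:**
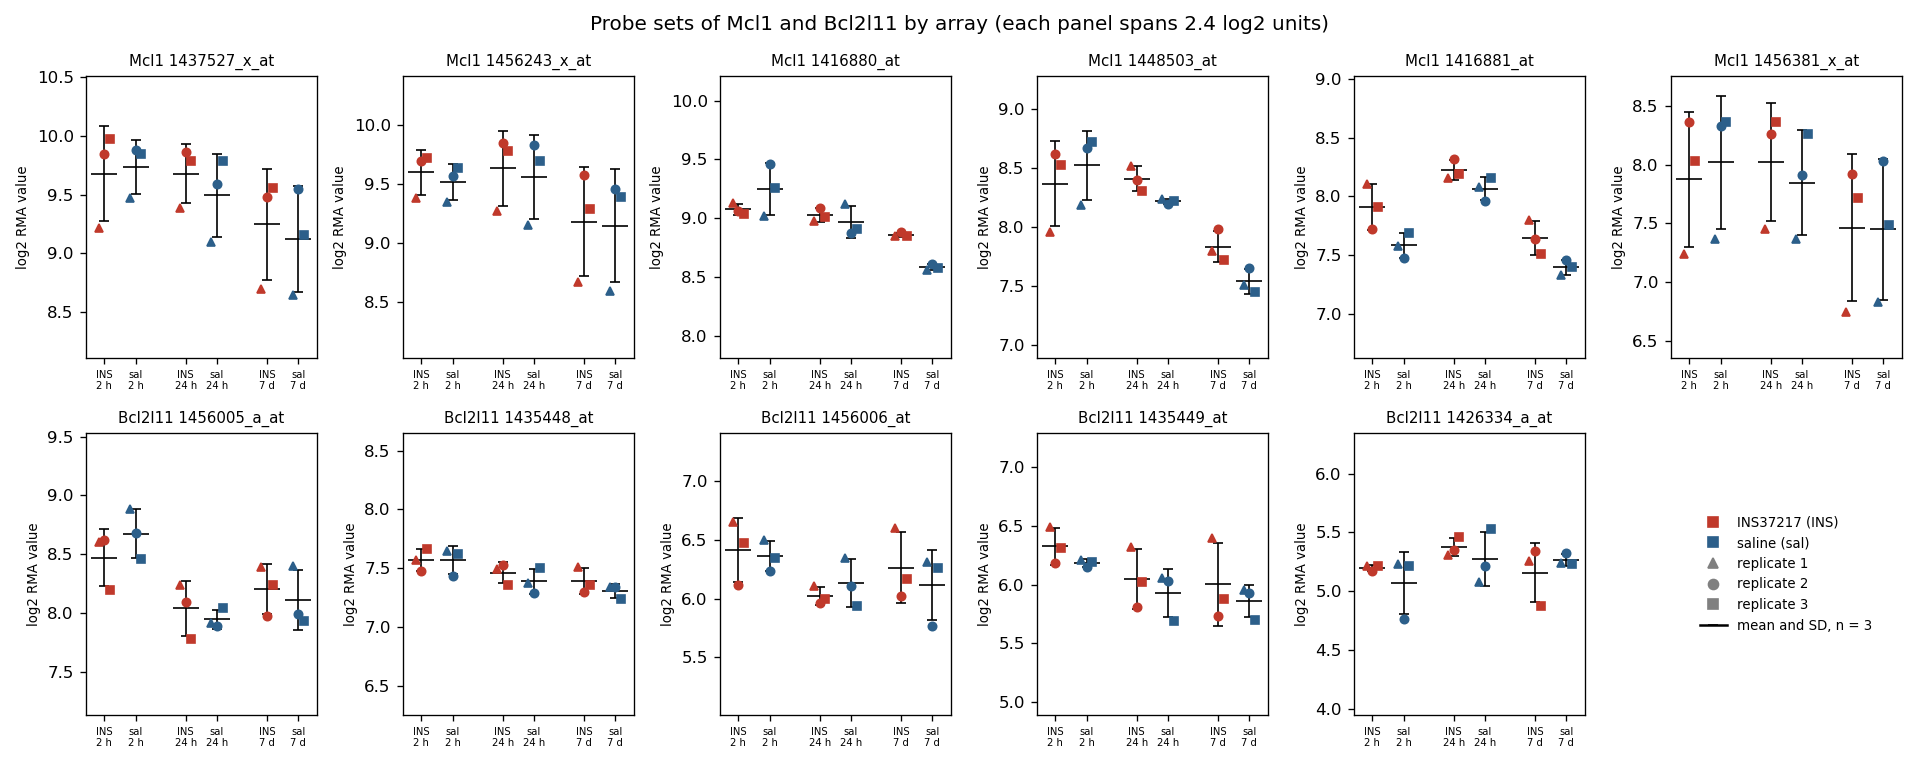
Log2 RMA values of the 6 Mcl1 probe sets (top) and the 5 Bcl2l11 probe sets (bottom) on every array, 2.4 log2 units in each panel, for INS37217 (INS, red) and saline (sal, blue) retinas with replicate numbers as marker shapes and the mean and SD of 3 arrays as lines. By group mean, probe set 1448503_at is lowest at 7 d (arrays at 7.45 to 7.98) and 1416881_at highest at 24 h (arrays at 7.96 to 8.32), and the 3 _x_at probe sets have replicate 1 lowest in every group.

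Bcl2, the founding pro-survival member, showed no change with time that passed. Its values in INS37217 retinas were 7.10, 7.23 and 7.16 at 2 h, 6.99, 6.95 and 6.91 at 24 h, and 7.42, 7.00 and 6.71 at 7 d. Those of saline retinas were 6.97, 6.93 and 6.97 at 2 h, 6.84, 6.66 and 6.77 at 24 h, and 7.45, 6.69 and 6.89 at 7 d. At 2 h and at 24 h the INS37217 arrays lay above the saline arrays with no overlap, and at 7 d the ranges overlapped. The INS37217 minus saline difference was 0.21 at 2 h (SE 0.18, 95% interval -0.17 to 0.58) and 0.19 at 24 h (SE 0.18, -0.18 to 0.57), with a limma adjusted p of 1 at both and of 0.696 and 0.670 with the block. The SE draws on the spread of all 6 groups, and the SD of Bcl2 was 0.02 to 0.09 in the 4 groups at 2 h and 24 h but 0.36 in INS37217 and 0.39 in saline retinas at 7 d.

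Bcl2l1, which encodes BCL-XL, varied with the replicate number more than with the group. Its main probe set, 1420888_at, read 8.72, 8.26 and 8.40 at 2 h, 8.85, 8.25 and 8.40 at 24 h, and 8.80, 8.22 and 8.20 at 7 d in INS37217 retinas, and 9.03, 8.43 and 8.28, then 8.77, 8.33 and 8.12, then 8.92, 8.37 and 8.35 in saline retinas. Replicate 1 exceeded the others by 0.55 on average and was highest in all 6 groups, and no comparison of times passed with or without the block. Probe set 1426191_a_at instead read 6.12, 6.32 and 6.13, then 6.33, 6.75 and 6.67, then 6.38, 6.41 and 6.38 in INS37217 retinas at 2 h, 24 h and 7 d. In saline retinas it read 6.06, 5.97 and 6.04, then 6.34, 6.56 and 6.30, then 6.21, 6.36 and 6.90. Its differences at 24 h against 2 h were 0.39 in INS37217 retinas (adjusted p = 0.186, with the block 0.0345) and 0.38 in saline retinas (adjusted p = 0.180, with the block 0.0351). For 7 d against 2 h they were 0.20 in INS37217 retinas (adjusted p = 0.673, with the block 0.322) and 0.47 in saline retinas (adjusted p = 0.107, with the block 0.0127). Probe set 1420887_a_at passed with the block at 24 h against 2 h in saline retinas (0.31, adjusted p = 0.580, with the block 0.0456), and 1426050_at, with values of 4.02 to 4.67, passed in no comparison of times.

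The inflammatory caspases gave no change that passed. Both read low: of the probe sets tested, 10.2% had a lower mean over the arrays than Casp1 and 9.8% a lower mean than Casp4. Whether a change could be seen at such levels was not tested. Casp1, which matures interleukin-1β, read 4.28, 4.25 and 4.21 at 2 h, 4.31, 4.21 and 4.31 at 24 h, and 4.37, 4.45 and 4.20 at 7 d in INS37217 retinas. Saline retinas gave 4.24, 4.05 and 4.37 at 2 h, 4.23, 4.25 and 4.08 at 24 h, and 4.29, 4.30 and 4.53 at 7 d. The largest of its time differences was 0.19 (SE 0.11), at 7 d against 24 h in saline retinas, where the ranges did not overlap (limma adjusted p = 0.772, with the block 0.310).

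Casp4, which senses intracellular lipopolysaccharide and is induced by interferon in macrophages, followed the replicate number. Its values were 4.68, 3.85 and 4.15 at 2 h, 4.60, 4.17 and 4.21 at 24 h, and 4.67, 4.16 and 4.01 at 7 d in INS37217 retinas. The saline arrays gave 4.78, 4.11 and 4.04 at 2 h, 4.58, 4.07 and 3.92 at 24 h, and 4.60, 3.86 and 3.79 at 7 d. Replicate 1 was highest in all 6 groups, by 0.62 on average, while the means of the groups spanned 0.24. No comparison of times passed for Casp1 or Casp4, with or without the block.

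INS37217 against saline gave no call among these genes. At 2 h, 24 h and 7 d, 0 of 7 genes and 0 of 19 probe sets passed in limma without or with the block. Without the block, 0 of the 7 main probe sets had an unadjusted p under 0.05 at any of the 3 times. Of all 19 probe sets 1 did at 2 h, 0 at 24 h and 2 at 7 d, all of them of Mcl1. With the block, 1420887_a_at of Bcl2l1 at 2 h (limma unadjusted p = 0.0467) and 1448503_at of Mcl1 at 7 d (0.0393) were under 0.05 as well. Few probe sets passed on the whole array, at 0.128% of 22626 at 2 h, 0.119% at 24 h and 0.15% at 7 d, and with the block 1.76%, 0.888% and 0.641%, so 0 of 7 is near that background. Differences of the main probe sets ran from -0.20 (Bcl2l11) to 0.21 (Bcl2) at 2 h, from 0.04 (Casp8) to 0.19 (Bcl2) at 24 h and from -0.14 (Bcl2l1) to 0.20 (Casp4) at 7 d. Their 95% intervals without the block reached from -0.68 to 0.58 at 2 h, from -0.46 to 0.78 at 24 h and from -0.67 to 0.79 at 7 d, so these data do not show that the treatments are alike. With the block the SE of these differences was smaller: 0.10 in place of 0.28 for Casp4, 0.11 in place of 0.28 for Mcl1 and 0.09 in place of 0.25 for Bcl2l1. Intervals with the block are not given here.

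The 3 Mcl1 probe sets without the _x_at suffix all read higher in INS37217 than in saline retinas at 7 d, with no overlap and in 3 of 3 pairs of the same number. The INS37217 minus saline difference at 7 d was 0.28 for 1416880_at, 0.30 for 1448503_at (unadjusted p = 0.0924) and 0.25 for 1416881_at (unadjusted p = 0.0433), each with a limma adjusted p of 1. With the block the adjusted p was at least 0.549 for these 3. They read the same gene in the same RNA, so they do not count as separate results. The share of all probe sets that lay apart between the treatments at 7 d was not counted. At 2 h, 1416881_at was also apart between the treatments, at 0.33 (unadjusted p = 0.0115, adjusted p = 0.867, with the block 0.161), while 1416880_at and 1448503_at gave -0.17 and -0.16 with overlap.

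For Casp8 the interval was narrower than for most of the genes. Its INS37217 minus saline difference was 0.00 at 2 h (95% interval -0.24 to 0.24), 0.04 at 24 h (-0.20 to 0.28) and 0.19 at 7 d (-0.05 to 0.43), and at 7 d the INS37217 array was higher in 3 of 3 pairs of the same number. The 7 d value had an unadjusted p of 0.109 and an adjusted p of 1, with the block 0.870. At 7 d the macrophage list averaged 7.89 in INS37217 retinas and 7.40 in saline retinas, and the list of 5 fibroblast genes 7.38 in INS37217 retinas and 6.35 in saline retinas. Their part in the Casp8 value was not tested.

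**Figure D4:**
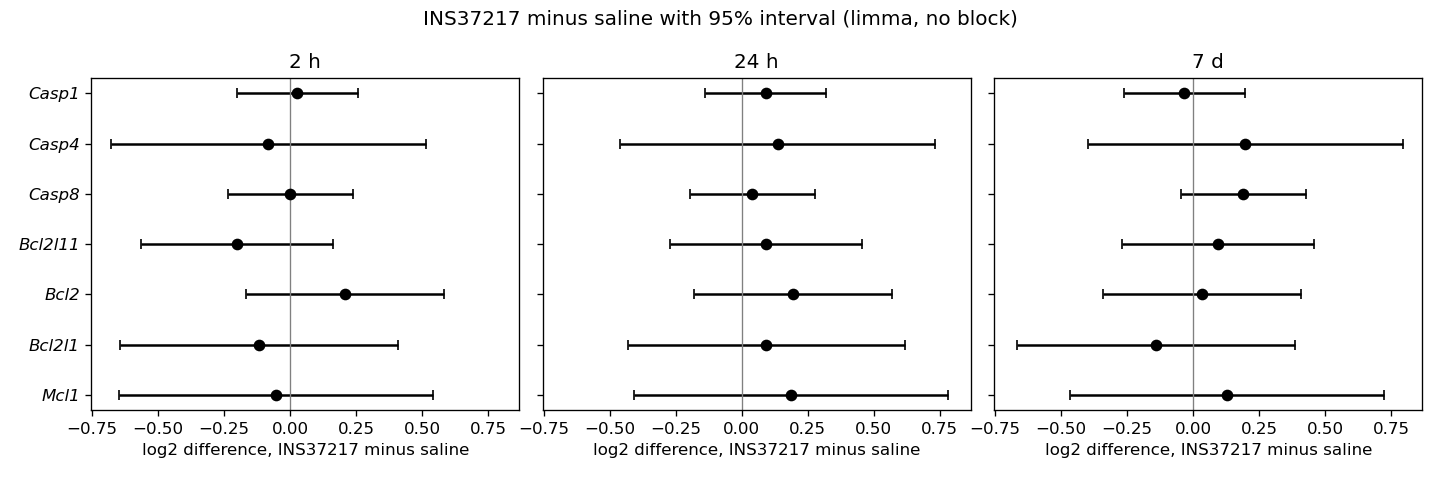
INS37217 minus saline log2 difference of each gene's main probe set (horizontal axis) at 2 h, 24 h and 7 d, with 95% intervals from limma without the block. All intervals include 0, the narrowest being those of Casp1 and Casp8, and the widest those of Casp4 and Mcl1.

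Whether the effect of INS37217 changed between times was tested as a difference of differences. None of the 7 genes passed for 24 h against 2 h (0.0575% of all probe sets passed, with the block 1.07%), for 7 d against 24 h (0.0398%, with the block 0.274%) or for 7 d against 2 h (0.0884%, with the block 0.835%). The limma adjusted p was 1 for every gene without the block and at least 0.607 with it. Without the block, 0 of the 7 main probe sets had an unadjusted p under 0.05 in any of the 3 contrasts. Of all 19 probe sets 1 did, for 7 d against 2 h: the effect of INS37217 on 1416880_at of Mcl1 was 0.45 higher at 7 d than at 2 h (95% interval 0.12 to 0.77, unadjusted p = 0.0101, limma adjusted p = 1, with the block 0.228). The same contrast of 1448503_at was 0.45 (95% interval -0.04 to 0.95, unadjusted p = 0.0711, adjusted p = 1, with the block 0.446), and that of 1416881_at was -0.08. With the block the unadjusted limma p of 1448503_at was 0.0272.

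Inflammatory and apoptotic members were also set side by side, with each gene's main probe set expressed relative to its own mean over the 18 arrays. The mean of the 2 inflammatory caspases minus the mean of the 5 apoptotic members was -0.069 ± 0.242 at 2 h, 0.004 ± 0.074 at 24 h and 0.074 ± 0.132 at 7 d in INS37217 retinas (SD, n = 3). In saline retinas it was -0.074 ± 0.171 at 2 h, 0.012 ± 0.201 at 24 h and 0.053 ± 0.083 at 7 d. Since replicate 1 stood apart in every group, differences within pairs of the same number are also given. At 7 d minus 2 h they were -0.022, 0.405 and 0.045 in INS37217 retinas and 0.007, 0.208 and 0.167 in saline retinas (replicates 1, 2 and 3). The value was thus higher at 7 d in 2 of 3 pairs in INS37217 retinas and 3 of 3 in saline retinas, and INS37217 minus saline was positive in 1 of 3 pairs at 2 h, 1 of 3 at 24 h and 2 of 3 at 7 d. These values are a description and were not tested, and both inflammatory caspases read low on the array, as given above. The mean of 5 hides members that moved apart, since Casp8 was lowest and Bcl2l11 highest at 2 h. It also joins the pro-survival Bcl2, Bcl2l1 and Mcl1 with Casp8 and the pro-death Bcl2l11, so it does not measure more or less apoptosis.

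**Figure D5:**
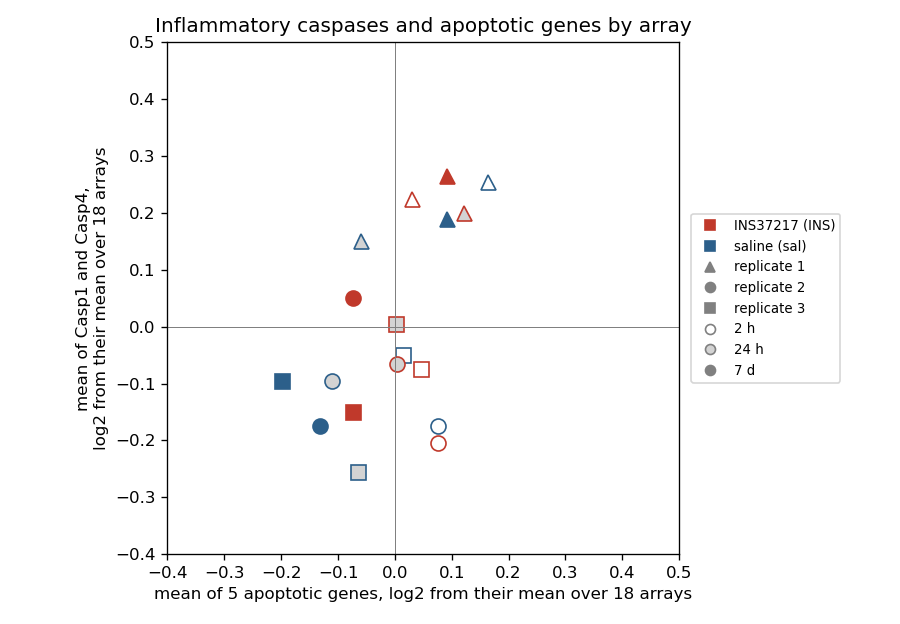
Mean of Casp1 and Casp4 (vertical axis) against the mean of Casp8, Bcl2l11, Bcl2, Bcl2l1 and Mcl1 (horizontal axis) on each of 18 arrays, in log2 units from each gene's own mean; colour gives the treatment, shape the replicate number and fill the time. The 6 arrays of replicate 1 lie highest on the vertical axis in both treatments and at all 3 times, as Casp4 is 0.62 higher on them.

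How alike the members were was described after the mean of each replicate number had been taken off. Over the 18 arrays, which share their groups and times, the Pearson correlation of Casp8 with Bcl2l11 was -0.80, that of Casp1 with Mcl1 -0.56, that of Casp4 with Mcl1 0.42 and that of Casp1 with Casp4 -0.19. By the same measure, among genes whose means spanned at least 0.5 over the groups, the 3 most like Casp8 were A2m (0.948), Anxa5 (0.945) and Nectin3 (0.944). The 3 most like Bcl2l11 were A530058N18Rik (0.933), Rnf208 (0.907) and Il1a (0.898), and those most like Mcl1 were Clic4 (0.932), Ier3 (0.910) and Gadd45g (0.902). For Bcl2 they were Mcpt2 (0.846), Thop1 (0.835) and Hes7 (0.817). The best values were lower for Bcl2l1 (Hgfac, 0.712), Casp4 (Il1rn, 0.703) and Casp1 (Car12, 0.656).

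Other genes of the same pathways were counted from lists of names. No caspase among the 5 measured of 7 others passed in any comparison of times or treatments without the block, where 1.31% to 7.58% of all probe sets passed between times and 0.119% to 0.15% between treatments, so 0 of 5 is near that background. With the block, where 7.37% to 29.0% passed between times, Casp2 and Casp6 passed in some comparisons of times: at 24 h against 2 h, Casp2 differed by 0.39 in INS37217 retinas (adjusted p = 0.202, with the block 0.0134) and 0.43 in saline retinas (0.121, with the block 0.00523). Casp6 differed at 7 d against 2 h by 0.58 in INS37217 retinas (0.0694, with the block 0.00295) and 0.56 in saline retinas (0.0739, with the block 0.00298). None of the 10 measured of 11 other pro-death BCL2 family genes passed between times or treatments without the block, against the same background. Bid, which links Casp8 to mitochondria, differed by 0.57 at 24 h against 2 h in saline retinas (adjusted p = 0.0675, with the block 0.00356), and Bak1, which like BAX opens the mitochondrial membrane, by -0.37 (adjusted p = 0.292, with the block 0.0146). In INS37217 retinas the same differences were 0.38 for Bid and -0.23 for Bak1, and neither passed in either fit. Of 6 other pro-survival genes 2 were measured, and 1 of them, Bcl2l10, differed at 24 h against 2 h by -0.69 in INS37217 retinas (adjusted p = 0.0866, with the block 0.00185) and fell by 0.80 in saline retinas (adjusted p = 0.0389).

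In the death receptor list, 12 of 15 genes were measured, and those that passed against 2 h without the block all fell, 2 of 12 at 24 h in each treatment and at 7 d 1 of 12 in INS37217 and 0 of 12 in saline retinas. Of all probe sets, 3.3% fell in INS37217 and 2.93% in saline retinas at 24 h, and 2.39% in INS37217 and 2.74% in saline retinas at 7 d. With the block Fadd, the adaptor of Casp8, passed upwards at 24 h in INS37217 retinas (0.34, adjusted p = 0.111, with the block 0.00748) and at 7 d in saline retinas (0.30, adjusted p = 0.176, with the block 0.0162). Fas, a receptor that activates Casp8, changed at 24 h by -0.93 in INS37217 retinas (adjusted p = 0.00021) and by -0.46 in saline retinas (adjusted p = 0.0395), and at 7 d by -1.11 in INS37217 retinas (adjusted p = 4.38e-05). Its difference at 7 d in saline retinas was -0.42 (adjusted p = 0.0716, with the block 0.0111). Cflar, which encodes the inhibitor of Casp8 named FLIP, fell by 0.64 at 24 h in each treatment (adjusted p = 0.0276 in INS37217 and 0.0248 in saline retinas). Of the apoptosome and inhibitor of apoptosis list, 9 of 9 were measured. Against 2 h without the block 0 rose. At 24 h 2 of 9 fell in INS37217 and 1 of 9 in saline retinas, and at 7 d 1 of 9 in each. The shares of all probe sets that fell are those given above. The median difference of the list at 24 h was 0.13 in INS37217 retinas and 0.12 in saline retinas, so the falls do not stand for most of this list. Birc3, an inhibitor of apoptosis induced by NF-kappaB, changed at 24 h by -0.82 in INS37217 retinas and -0.77 in saline retinas, and at 7 d by -1.10 in INS37217 retinas and -0.85 in saline retinas, with adjusted p of at most 0.000357. Xiap, the inhibitor of effector caspases, fell by 0.82 at 24 h in INS37217 retinas (adjusted p = 0.0266), and in saline retinas its difference was -0.57 (adjusted p = 0.124, with the block 0.00415). The difference between treatments at 2 h was 0.59 for Fas, with means of 5.96 in INS37217 retinas and 5.36 in saline retinas (adjusted p = 0.118, with the block 0.00681).

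Of the inflammasome list 11 of 15 genes were measured, and 0 rose in any comparison of times without the block, where 0.336% to 4.65% of all probe sets rose. At 24 h against 2 h, 1 of 11 fell in INS37217 retinas and 2 of 11 in saline retinas, and with the block 2 rose and 2 fell in INS37217 retinas and 1 rose and 2 fell in saline retinas. Of all probe sets, 3.3% fell in INS37217 and 2.93% in saline retinas. With the block 11.6% rose and 10.5% fell in INS37217 retinas, and 16.1% rose and 12.9% fell in saline retinas. Il1b, the cytokine that Casp1 matures, averaged 7.98, 7.13 and 6.25 at 2 h, 24 h and 7 d in INS37217 retinas and 7.67, 6.39 and 6.11 in saline retinas. It changed at 24 h against 2 h by -0.85 in INS37217 retinas (SE 0.22, adjusted p = 0.0254) and by -1.28 in saline retinas (SE 0.22, adjusted p = 0.00143). Its change at 7 d against 2 h was -1.73 in INS37217 retinas (adjusted p = 9.82e-05) and -1.56 in saline retinas (adjusted p = 0.00034). Pycard, the inflammasome adaptor ASC, differed upwards at 7 d against 2 h, by 0.82 in INS37217 retinas (adjusted p = 0.0589, with the block 8.09e-06) and 0.48 in saline retinas (0.325, with the block 0.00202). At 24 h, INS37217 minus saline was 0.73 for Il1b (adjusted p = 0.557, with the block 0.0316) and 0.57 for Il1rn, the receptor antagonist (adjusted p = 1, with the block 0.0251).

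Of 13 inducers of caspase transcription 11 were measured, and at 24 h against 2 h 3 rose and 0 fell in INS37217 retinas, and 4 rose and 0 fell in saline retinas. Over all probe sets, 3.23% rose and 3.3% fell in INS37217 retinas and 4.65% rose and 2.93% fell in saline retinas. With the block 3 of the 11 rose and 1 fell in INS37217 retinas, against 11.6% and 10.5% of all probe sets, and 5 rose and 1 fell in saline retinas, against 16.1% and 12.9%. Irf7, an interferon-induced regulator, averaged 6.65, 8.92 and 6.53 at 2 h, 24 h and 7 d in INS37217 retinas and 6.62, 8.38 and 6.47 in saline retinas. It rose at 24 h by 2.27 in INS37217 retinas (adjusted p = 2.78e-08) and by 1.76 in saline retinas (adjusted p = 7.32e-07). Irf8, a regulator of macrophages and microglia, rose by 1.55 in INS37217 and 1.63 in saline retinas, with adjusted p of at most 2.34e-06, and both fell again by 7 d. Irf1, known to induce several caspases, did not pass at 24 h against 2 h. Its change at 7 d against 2 h was -1.07 in INS37217 retinas and -1.10 in saline retinas (adjusted p of 5.53e-05 in INS37217 and 5.28e-05 in saline retinas). At 24 h, INS37217 minus saline was 0.54 for Irf7 (adjusted p = 0.303, with the block 0.0165) and 0.51 for Irf1 (adjusted p = 0.303, with the block 0.0197), beside a Casp4 difference of 0.14 (adjusted p = 1, with the block 0.683) and a Casp1 difference of 0.09 (adjusted p = 1, with the block 0.811). No gene of these pathway lists passed between treatments at any time without the block.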

How the data were processed

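Total RNA of 18 pools was measured on Affymetrix mouse arrays. The values used are the deposited log2 values, computed by the authors with RMA per the submitters' processing notes; the sources used here give no RMA version. They were not normalized again. Of 22690 probe sets, 64 Affymetrix controls were left out and 22626 tested. Of those tested, 20380 had 1 gene in the platform annotation, 691 several and 1555 none, and only those with 1 gene are named. No probe set was filtered by level, so all 19 of the 7 genes were tested. Counts planned for 8 genes are over 7, since Bax has no annotated probe set here.

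A linear model with 6 group means was fitted to the 18 arrays by lmFit and eBayes of limma 3.58.1 (R 4.3.3), and p-values were adjusted by Benjamini and Hochberg over 22626 probe sets, with a threshold of 0.05. A gene list counts main probe sets only. The residual degrees of freedom were 12, and 10 with the block. The number of arrays limits the precision. Replicate numbers come from the titles, and no source used here says what they stand for. After removal of group means, the 45 pairs of arrays of the same number correlated at 0.426 to 0.921, those of number 1 with 2 or 3 at -0.847 to -0.501 and those of 2 with 3 at 0.363 to 0.725. By this check number 1 stands apart from 2 and 3. The ranges for the same number and for 2 with 3 overlap, so the check does not show that numbers 2 and 3 differ. The blocked value stands beside a result where it changes the call.

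The genes, the pathway and marker lists and the tests were chosen with earlier results of these data known. All members are named; of each list up to 6 genes that passed in a comparison and changed most may be named. Genes named with the block only (Bak1 and Fadd among them), and Irf1 and Pycard, were chosen after their values were seen. Promoter sequences are from RefSeq (GRCm38.p6). The steps were tested on simulated data. The alternatives are given in the closing section.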

Additional observations from a re-analysis of the deposited data

How the results depend on the processing

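The counts of genes passed of 7 were recomputed under other settings, and all counts between treatments and for the differences of differences stayed at 0. At 24 h against 2 h in INS37217 retinas the count of 1 became 2 with the replicate block, with only replicates 2 and 3, and with the block and saline 7 d replicate 2 left out (chosen after seeing the data), and 0 when probe sets below the median level were left out, among them that of Casp8. In saline retinas the count of 2 became 1 when a gene's probe sets were averaged and 1 above the median level, and ran from 1 to 2 with each array left out in turn. At 7 d against 2 h in INS37217 retinas the count of 1 became 2 with the block, 3 with only replicates 2 and 3, 0 above the median level, 0 with only the groups compared, and 2 with the block and saline 7 d replicate 2 left out. In saline retinas the count of 0 became 1 with quantile normalization again (Casp8), 3 with the block, 2 with only replicates 2 and 3, 3 with the block and saline 7 d replicate 2 left out, and 0 to 1 with each array left out, Bcl2l11 passing without saline 7 d replicate 1 (adjusted p = 0.0242). At 7 d against 24 h the count of 0 became 1 (Mcl1) with the block and with that block less saline 7 d replicate 2, in each treatment. Of 2232 values of single genes, 2206 kept their side of the threshold, 21 passed only under the alternative and 5 passed only without it; 141 had the other sign, 0 of them of a gene that passed. Equal array medians and eBayes with trend and robust changed no count. Casp8 passed with each array left out for INS37217 at 24 h (log2 0.52 to 0.66) and 7 d (0.46 to 0.58) and for saline at 24 h (0.49 to 0.55), each against 2 h. With the block, no other call of the 7 genes changed than those given here. Why the settings differ was not tested, other than that fewer probe sets or arrays enter some of them. The deposited values used here carry no detection call, so whether a probe set lay above background was not tested.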
